A study of Mus musculus with 15 samples.

Results

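The genes described are *Trp53*, which encodes p53, and 9 of its direct targets in the mouse: *Mdm2*, *Ccng1*, *Bax*, *Bbc3*, *Zmat3*, *Phlda3*, *Aen*, *Trp53inp1* and *Sesn2*. They were chosen by name as textbook members of the p53 response, and all 10 are among the 12545 genes that the expression table lists. RNA-sequencing was done on 15 T cell leukemia lines grown without treatment, 1 library per line, all from the thymus of FVB/NJ mice. In 8 lines, called DKO, the genotype is *E2a-/-* with floxed *Lef1* alleles (LefF/F) and the transgene LckCre+, in which the *Lck* promoter drives Cre in developing T cells. The other 7 lines are labelled *E2a-/-*, with no deletion of *Lef1* named. By their labels both groups lack *E2a*, and there is no *E2a*-sufficient control. The mice had fallen ill with leukemia, and the age of the mouse behind each line is not given, so age and genotype cannot be told apart; nothing in the labels ties any of the lines to the same mouse or to a sequencing batch. Each line is 1 culture derived from a leukemia, and p-values measure the spread between such lines. Between 4847970 and 21377352 reads of a DKO line fell on the listed genes (median 18908121), and between 14477802 and 21681586 of an *E2a-/-* line (median 18584597). The values are CPM, the reads of a gene scaled to the total of its line, and 1 read is worth 0.206 CPM in DKO79.9, the line with the fewest reads, and 0.0461 CPM in SKO95, the line with the most.

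p53 is a transcription factor that limits the growth of damaged or transformed cells. In unstressed cells the ubiquitin ligase Mdm2 keeps the protein scarce, and after DNA damage or oncogene activity p53 accumulates and raises a set of genes that halt the cell cycle, start apoptosis or feed back on p53 itself. Mice without p53 are prone to lymphoma of the thymus, and *Cdkn1a*, the cyclin-dependent kinase inhibitor p21, is the best known p53 target, although other factors also control it. The questions were which lines stand low or high for these targets, and whether that order follows genotype or *Cdkn1a*. p53 protein and *Trp53* sequence variants were not analysed here.

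The targeted genes were read first, as a check of the labels. *Lef1* ranged over the DKO lines from 103 to 210 CPM with a median of 128 CPM. In the *E2a-/-* group its median was 933 CPM, and 6 of the lines were between 668 and 1558 CPM. The library labelled SKO132, also *E2a-/-*, was at 59.0 CPM, below every DKO line, so for *Lef1* it goes against its label. Many of the results below are therefore also given without it. *Tcf3*, the gene of the E2A proteins, was between 117 and 243 CPM over the 15 lines, but a count over all exons of *Tcf3* or *Lef1* includes the exons left by a partial deletion and cannot show the loss of a protein.

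*Trp53* mRNA was present in every line. Its level was 220 CPM in the lowest DKO line, 330 CPM at the median and 440 CPM in the highest, DKO79.9. Across the *E2a-/-* lines the lowest, median and highest levels were 160, 294 and 326 CPM. The groups overlapped between 220 and 326 CPM, and the DKO median was above the highest *E2a-/-* level. The lowest of the 15 levels was that of the library labelled SKO132, which was 52.95% of the median over the remaining lines of its group. The DKO lines averaged 311.7 ± 71.7 CPM (SD, n = 8), and the *E2a-/-* lines 280.8 ± 56.4 CPM (SD, n = 7). On the scale of log2(CPM + 1), which is used for every difference here and understates changes of genes with low CPM, DKO minus *E2a-/-* was 0.15 (95% interval -0.21 to 0.51), for which limma gave an adjusted p of 0.789 across 12545 genes. The threshold for a call was an adjusted p under 0.01. *Trp53* lies on chromosome 11 together with *Ccng1*, and in DKO241 the genes of chromosome 11 stood higher than those of other autosomes by a median of 0.47 on the log2 scale; *Trp53* was at 333 CPM in that line, the fourth highest level. Smaller shifts on chromosomes of other members included 0.26 in DKO548 for chromosome 1, which holds *Phlda3*. For chromosome 7, which holds *Bax*, *Bbc3* and *Aen*, they were 0.16 in DKO79.9, 0.11 in DKO170.2 and -0.14 in DKO548. The part of these shifts in the levels was not tested.

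*Mdm2* and *Ccng1* belong to the feedback arm, Mdm2 as the ligase that degrades p53 and cyclin G1 as a partner of the phosphatase PP2A that acts on Mdm2. The lowest, median and highest *Mdm2* levels of the DKO lines were 69.8, 88.4 and 103 CPM, and those of the *E2a-/-* lines 84.4, 97.5 and 109 CPM. *Mdm2* thus varied least of the 10 genes, by a factor of 1.57 between the extremes, and the lowest 4 lines of the 15 were all DKO. The difference in *Mdm2* was -0.15 (95% interval -0.37 to 0.06; adjusted p = 0.634, limma), and *Mdm2* was the one member whose mean was lower in DKO. *Ccng1* ran from 68.8 CPM through a median of 120 to 205 CPM in DKO lines. Among *E2a-/-* lines *Ccng1* ran from 51.8 CPM through a median of 117 to 143 CPM. The high end for *Ccng1* was DKO102.4, the low end the library labelled SKO132 and SKO95 (54.1 CPM), and the other 12 lines lay between 68.8 and 143 CPM without regard to group. Its difference was 0.23 (95% interval -0.32 to 0.79; adjusted p = 0.785, limma).

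The death-promoting targets are *Bax*, a pore-forming member of the Bcl-2 family, *Bbc3*, whose BH3-only protein Puma neutralises Bcl-2, *Trp53inp1*, whose product aids the phosphorylation of p53, and *Aen*, an exonuclease induced in apoptosis. *Bax* was lowest in DKO241 among DKO lines at 61.6 CPM, had a median of 88.4 CPM there and reached 155 CPM in DKO102.4. In *E2a-/-* lines *Bax* had a lowest level of 60.3 CPM, a median of 75.6 CPM and a highest level of 119 CPM. The lines DKO102.4, DKO170.2 and DKO79.9 were above every *E2a-/-* line for *Bax*, while the remaining DKO lines fell inside the *E2a-/-* range. *Bbc3* was low in all lines, at 1.33 CPM (25 reads) in DKO241, a DKO median of 7.98 CPM and 18.3 CPM in DKO102.4. In *E2a-/-* lines *Bbc3* was between 2.096 CPM and 13.6 CPM, with a median of 7.05 CPM. The same lines led for *Bbc3* as for *Bax*, DKO102.4 and DKO170.2, and the DKO group also held the lowest line of the 15.

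*Trp53inp1* ranged from 168 to 643 CPM in DKO lines (median 382 CPM) and from 111 to 434 CPM in *E2a-/-* lines (median 295 CPM). Its 2 lowest lines were the library labelled SKO132 and SKO95 (132 CPM), and its 3 highest were DKO102.4, DKO192.3 and DKO713. The difference in *Trp53inp1* was 0.53 (95% interval -0.16 to 1.23; adjusted p = 0.593, limma). *Aen* stayed within 69.1 to 126 CPM in DKO lines and within 50.2 to 106 CPM in *E2a-/-* lines, with medians of 87.1 and 89.8 CPM. For *Aen*, too, the library labelled SKO132 and SKO95 (60.8 CPM) were the lowest and DKO102.4 the highest.

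*Phlda3* and *Zmat3* restrain growth, the former by blocking Akt at the membrane and the latter as an RNA-binding protein with zinc fingers. *Phlda3* was the scarcest member. Its lowest, median and highest levels in DKO lines were 1.998, 3.98 and 12.2 CPM. Among *E2a-/-* lines they were 0, 0.828 and 8.71 CPM, and the 0 is that of the library labelled SKO132, where a count of 0 allows up to 0.165 CPM (3 reads). In DKO lines *Phlda3* fell into 4 at 5.66 CPM or more and 4 at 2.30 CPM or less, and in *E2a-/-* lines SKO115.2 and SKO137.1 (7.03 CPM) stood above the other 5. The means of *Phlda3* were 6.02 ± 4.58 CPM (SD, n = 8) and 2.98 ± 3.50 CPM (SD, n = 7). Its difference, 1.01 (95% interval -0.15 to 2.16), was larger than that of any other member, with an unadjusted p of 0.0824 and an adjusted p of 0.562 from limma. *Zmat3* spanned 34.6 to 222 CPM in DKO lines (median 87.5 CPM) and 14.7 to 108 CPM in *E2a-/-* lines (median 75.1 CPM). Only DKO102.4 lay far above the rest for *Zmat3*, and the library labelled SKO132 lay far below, which was 19.1% of the median over the remaining lines of its group.

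*Sesn2*, a stress sensor that holds back mTORC1, did not share this order. Its level went from 20.5 to 68.5 CPM in DKO lines (median 35.7 CPM) and from 22.9 to 67.1 CPM in *E2a-/-* lines (median 33.5 CPM). The highest lines for *Sesn2* were DKO548 and the library labelled SKO132, which was the lowest line for 6 of the other 8 targets. The difference between the groups for *Sesn2* was 0.00026 (95% interval -0.59 to 0.59), and its sign depends on the setting.

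**Figure D1:**
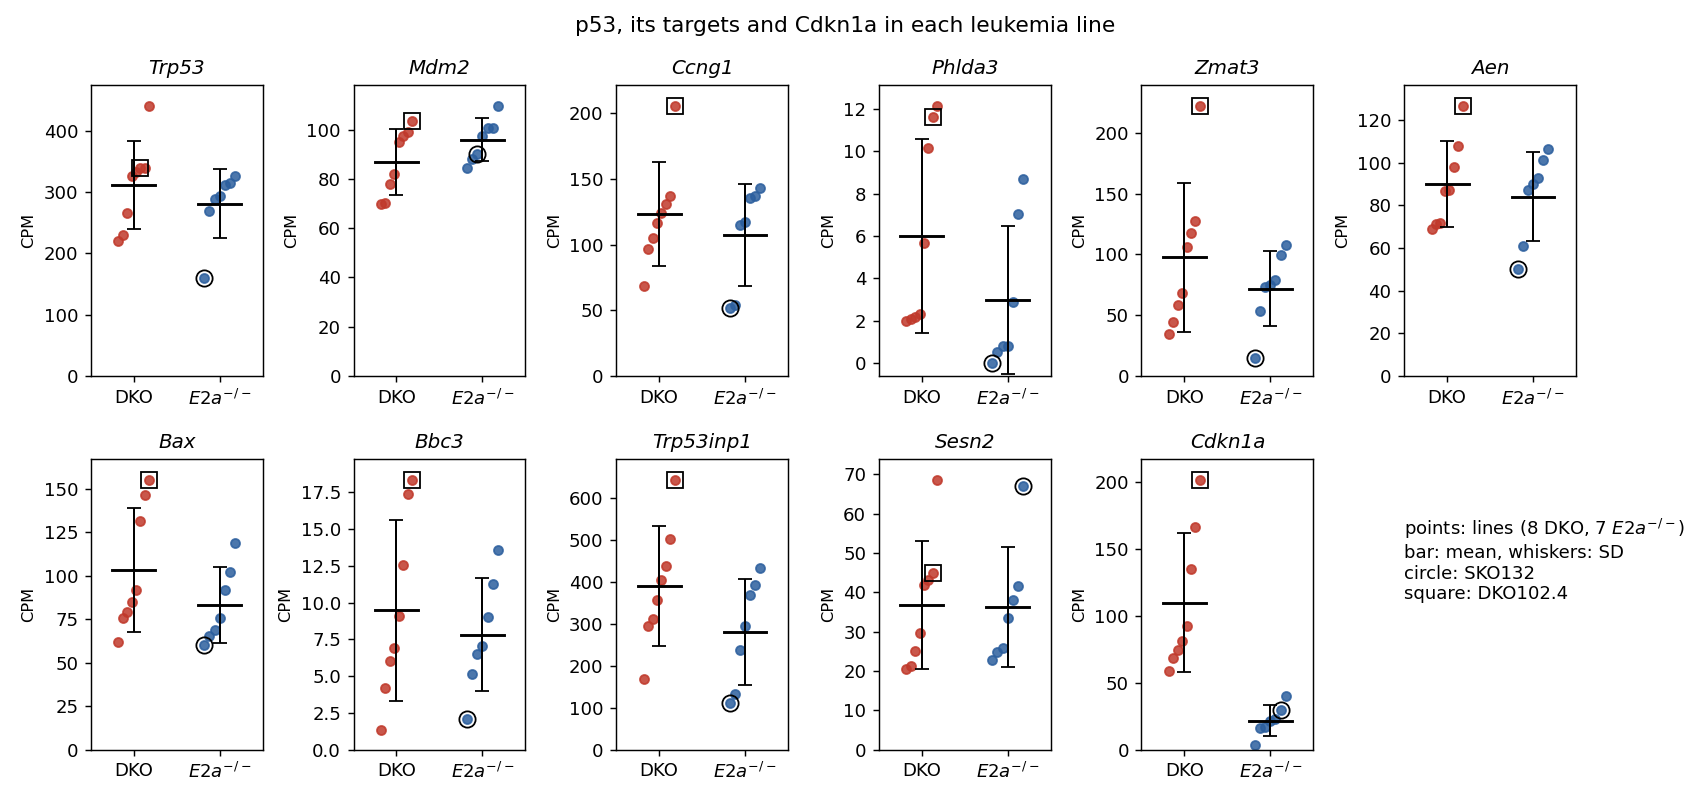
Level in CPM of *Trp53*, 9 p53 targets and *Cdkn1a* in 8 DKO (red) and 7 *E2a-/-* (blue) lines. Each point is a line, bars are means and whiskers SD, the circle marks the library labelled SKO132 and the square DKO102.4; the groups overlap for all 10 members and not for *Cdkn1a*.

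Read against genotype, 0 of the 10 members were called by limma, where 6 of 12545 genes (0.0478%) were called. At an unadjusted p under 0.05 the count was also 0 of 10, against 10.2% of all genes. The groups overlapped for all 10 members, while 0.175% of all genes had groups that do not overlap. The edgeR quasi-likelihood and likelihood ratio tests and DESeq2 on recovered reads each called 0 members as well, against 0.00797%, 0.662% and 1.37% of all genes, with 0 members at an unadjusted p under 0.05, against 10.8%, 10.4% and 12.5% of genes. An exact two-sided permutation test over all 6435 ways to assign 8 and 7 lines gave 0 members an unadjusted p under 0.05, against 1311 of 12545 genes. The mean was higher in DKO for 9 of the 10, against 5810 of 12545 genes, with a median difference of 0.19 against -0.02 over all genes. The differences not given above were 0.27 for *Bax*, 0.12 for *Bbc3*, 0.11 for *Aen* and 0.40 for *Zmat3*, with adjusted p values of 0.681, 0.948, 0.866 and 0.783 from limma. Without the library labelled SKO132, 7 were higher and 3 lower, and *Zmat3* went from 0.40 to 0.06, *Trp53* from 0.15 to 0.02, *Ccng1* from 0.23 to 0.079 and *Trp53inp1* from 0.53 to 0.34. *Ccng1* was also at 0.089 without SKO95 and 0.12 without DKO102.4. Leaving out DKO102.4 also took *Bax* to 0.18 and *Zmat3* to 0.19. With single lines left out, limma still called 0 members, and *Phlda3* had an unadjusted p of 0.0244 without SKO115.2 and 0.0348 without SKO137.1, and *Trp53inp1* one of 0.0382 without DKO170.2. In each of these 3 fits that was 1 of 10 members under 0.05, against 8.49%, 9.32% and 8.6% of all genes. A p that misses the threshold does not show that the groups are alike.

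Between genes, levels were compared per kilobase of exon. The median over lines was 77.1 CPM per kilobase for *Trp53*, followed by 55.3 for *Trp53inp1* and 53.9 for *Bax*. *Ccng1* came next at 33.3, then *Mdm2* at 18.7, *Aen* at 15.1 and *Sesn2* at 9.65. *Zmat3* at 6.57, *Bbc3* at 3.32 and *Phlda3* at 1.48 CPM per kilobase were the scarcest. *Trp53inp1* and *Bax* are neighbours in this order that do not differ beyond their spread over lines. The 2 scarcest members were also among the most variable, with an SD over the 15 lines on the log2 scale of 1.20 for *Phlda3* and 0.87 for *Bbc3*, against 0.20 for *Mdm2*.

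Line by line, the targets were summarised as the mean over the 9 targets of each gene's log2 value, centred and divided by its SD over the 15 lines. This mean was highest in DKO102.4 at 1.43 SD units. That line was the highest of the 15 for 6 of the 9 targets (*Ccng1*, *Bax*, *Bbc3*, *Zmat3*, *Aen* and *Trp53inp1*) and among the highest 3 for all 9, while over all genes it was the highest line for 2.80%. Of the 36 further p53 targets described below, it was the highest line for 3 and among the highest 3 for 14. The latter count was between 4 and 11 in the other lines. DKO79.9 followed at 0.67, with the most *Phlda3* and the most *Trp53*, and it is also the line with the fewest reads. SKO115.2 (0.44), SKO137.1 (0.41) and SKO163.5 (0.33), all *E2a-/-*, came next, above 6 of the 8 DKO lines. SKO115.2 had the highest *Mdm2*.

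Between 0.09 and -0.06 lay DKO713, DKOTu3, DKO192.3, SKO186.5 and SKO156.6, from both groups. DKO548 (-0.25), DKO170.2 (-0.36) and DKO241 (-0.42) were the lowest DKO lines, and each was uneven over the targets. DKO170.2 was among the highest 3 lines for *Bax*, *Bbc3* and *Phlda3* and among the lowest 3 for *Mdm2*, *Ccng1*, *Zmat3*, *Trp53inp1* and *Sesn2*. The high targets of that line are the shortest members, with 1576, 2124 and 1559 bases of exon. Its low targets have between 3475 and 11435 bases, and the part of gene length in this unevenness was not tested. Over all genes DKO170.2 was the lowest line for 18.8% and the highest for 14.96%. DKO241 had the least *Bbc3* of all lines, and DKO548 the most *Sesn2*. SKO95 was low at -0.96, below the median of the gene for 8 of the 9 targets. The library labelled SKO132 was lowest at -1.29, with the lowest level of the 15 lines for 6 targets (*Ccng1*, *Bax*, *Zmat3*, *Phlda3*, *Aen* and *Trp53inp1*) and for *Trp53*. Over all genes that library was the lowest line for 8.79% and the highest for 15.7%, and over the 36 further targets the lowest for 5 and the highest for 4. Of the 12 T lineage markers described below, it was the lowest line for 6 and the highest for 0.

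DKO102.4 stayed the highest line and the library labelled SKO132 the lowest whichever of the 9 targets was left out of the mean. By group the mean ran from -0.42 to 1.43 in DKO lines (median 0.01) and from -1.29 to 0.44 in *E2a-/-* lines (median -0.03). Both the high and the low lines thus lay beyond the bulk of a shared range, and the medians of the groups were close to each other.

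**Figure D2:**
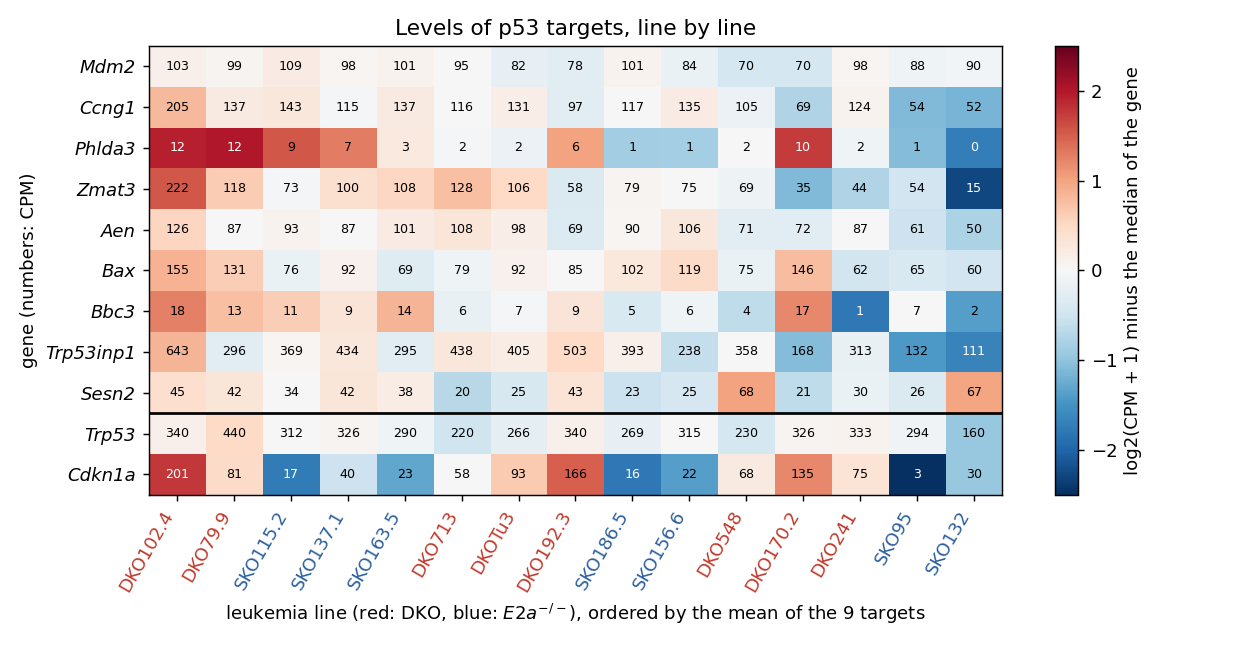
Levels of the 9 targets, *Trp53* and *Cdkn1a* in each line, colored by log2(CPM + 1) after subtracting each gene's median, with the CPM printed in each cell. Lines are ordered by the mean of the 9 targets, from DKO102.4 at 1.43 to the library labelled SKO132 at -1.29, and DKO (red) and *E2a-/-* (blue) lines are mixed along the order.

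*Cdkn1a* did follow genotype. Its lowest, median and highest levels were 58.5, 87.1 and 201 CPM in DKO lines and 3.13, 21.7 and 40.4 CPM in *E2a-/-* lines. Every DKO line was above every *E2a-/-* line. The difference was 2.41 (95% interval 1.53 to 3.30), with an adjusted p of 0.0257 from limma, which misses the threshold of 0.01. Over the alternative settings that adjusted p ranged from 1.96e-06 to 0.0714. It passed the threshold with the edgeR likelihood ratio test, with DESeq2 and without SKO95, where the difference was 2.05.

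The order of the lines for *Cdkn1a* and for the p53 targets met in a few lines and parted in others. DKO102.4 was highest for both. SKO95 had the least *Cdkn1a* and the second lowest target mean, but the library labelled SKO132, lowest for the targets, had 30.005 CPM of *Cdkn1a*, the second highest level among *E2a-/-* lines. DKO192.3 and DKO170.2, ranks 2 and 3 for *Cdkn1a* at 166 and 135 CPM, had target means of -0.03 and -0.36. SKO115.2, rank 3 for the target mean, had rank 13 for *Cdkn1a* at 16.8 CPM.

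Because *Cdkn1a* separates the genotypes, the relation was fitted with genotype as a term. None of the 10 members was called for a slope on *Cdkn1a*, where 0% of the 12544 other genes were called by limma. At an unadjusted p under 0.05 the count was again 0 of 10, against 5.3% of genes. The edgeR quasi-likelihood and likelihood ratio tests and DESeq2 called 0 members too, against 0%, 0.0159% and 0.231% of genes. All 10 slopes were above 0, against 6702 of 12544 genes, with a median of 0.20 log2 units per log2 unit of *Cdkn1a* against 0.01 over all genes. *Phlda3* had the steepest slope, 0.55 (95% interval -0.12 to 1.23; adjusted p = 0.952, limma). Without the library labelled SKO132, *Phlda3* (0.73), *Trp53inp1* (0.40) and *Ccng1* (0.30) had an unadjusted p under 0.05, 3 of 10 members against 5.85% of genes, with adjusted p values of 0.804, 0.804 and 0.833 from limma. Without SKO95 4 of the 10 slopes were below 0.

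Within the 8 DKO lines, the pro-apoptotic *Bbc3* and *Bax* had the highest rank correlation with *Cdkn1a* among the members. For *Bbc3*, Pearson's r was 0.665 (exact permutation p = 0.0711) and Spearman's rho 0.786 (exact permutation p = 0.0279, adjusted over all 12544 genes 0.739). For *Bax*, r was 0.620 (exact permutation p = 0.102) and rho 0.738 (exact permutation p = 0.0458, adjusted 0.739). Leaving out DKO102.4 and DKO192.3, the lines farthest from the median of *Cdkn1a*, left r at 0.612 for *Bbc3* and 0.727 for *Bax*. DKO170.2, rank 3 for *Cdkn1a* and rank 2 for *Bbc3* and *Bax*, remained in that setting, and no r was computed without it. The r of *Trp53inp1*, 0.252 over 8 lines (exact permutation p = 0.558, rho = 0.310), turned to -0.838 without them, so its sign rests on these lines. That of *Ccng1*, *Zmat3*, *Aen* and *Sesn2* also turned from above 0, to -0.643, -0.580, -0.484 and -0.327. For *Trp53* and *Phlda3* it stayed above 0, at 0.442 and 0.596, and for *Mdm2* it was below 0 in both settings. In the 7 *E2a-/-* lines the rho of *Bbc3* and *Bax* was 0.071 and -0.071, and without SKO95 and SKO137.1 their r was -0.511 and -0.533. Leaving out the library labelled SKO132 instead gave an r of 0.295 for *Bbc3* and 0.507 for *Bax*, so in this group the sign depends on the lines used. Within the 7 *E2a-/-* lines, *Sesn2* had the highest rho, 0.786 (exact permutation p = 0.0480, adjusted 1), with r = 0.547 (exact permutation p = 0.207) and 0.808 without SKO95 and SKO137.1. Without the library labelled SKO132, which has the most *Sesn2* of this group, its rho was 0.714 (exact permutation p = 0.136, unadjusted), a setting chosen after the data were seen. In that setting *Zmat3* had the highest r of the members, 0.877 (exact permutation p = 0.0222, unadjusted), the only one of the 10 with a p for r under 0.05, followed by *Ccng1* (0.843) and *Trp53inp1* (0.842). Their rho was lower, at 0.771 for *Zmat3* (exact permutation p = 0.103, unadjusted), 0.257 for *Ccng1* and 0.486 for *Trp53inp1*. SKO95, with the least *Cdkn1a* at 3.13 CPM, remained in that setting. With all lines used, these are 10 members in 2 groups, 20 relations in all, and 0 genes were called in either group after adjustment over all genes. With so few lines an exact permutation p could pass that adjustment only where many genes shared the smallest possible p, so nothing is read from this count. The mean of the 9 targets had r = 0.463 with *Cdkn1a* over the DKO lines and 0.390 over the *E2a-/-* lines, and without the 2 lines farthest from the median of *Cdkn1a* in each group these became -0.215 and -0.755. Over the *E2a-/-* lines the r was 0.900 and the rho 0.543 without the library labelled SKO132 alone, so in this group the r depends on single lines.

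**Figure D3:**
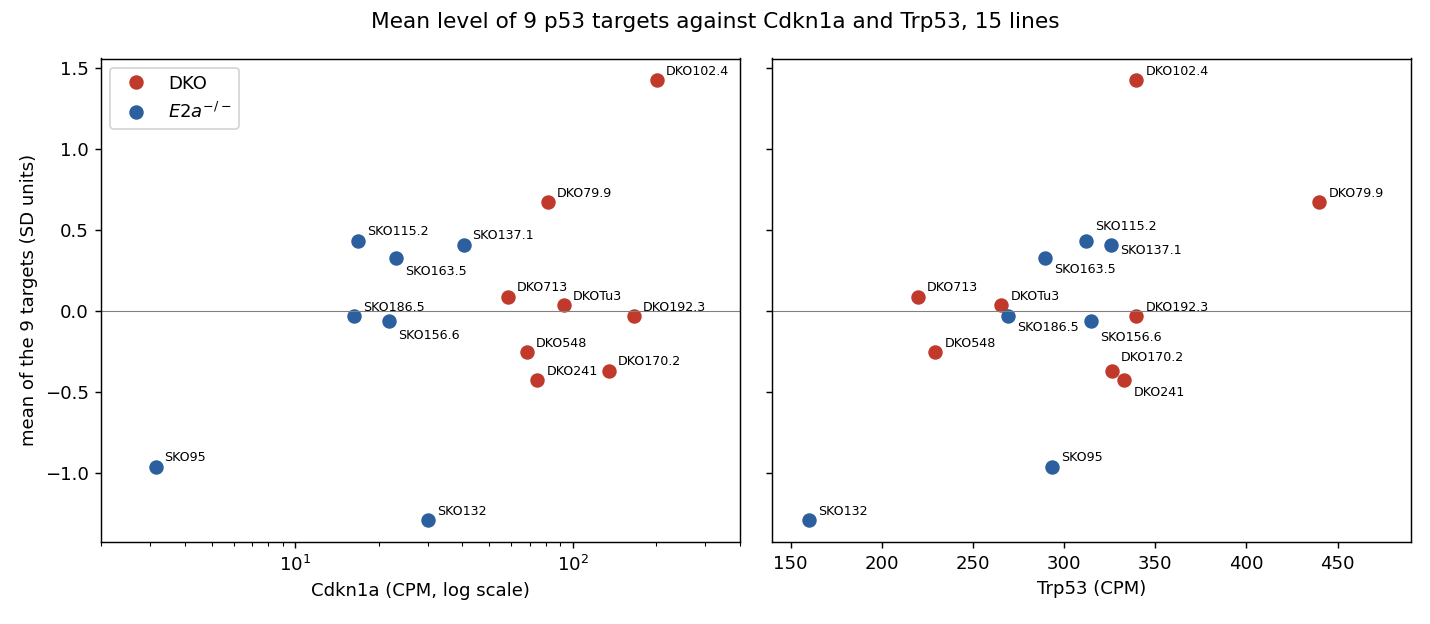
Mean of the 9 targets (SD units) in each line against the level of *Cdkn1a* (left, log scale) and of *Trp53* (right), for DKO (red) and *E2a-/-* (blue) lines. On the left the groups separate along *Cdkn1a* and overlap along the target mean; on the right the library labelled SKO132 is lowest on both axes.

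The targets were next set against the mRNA of *Trp53* itself. In the fit with genotype as a term, 0 of 9 targets were called for a slope on *Trp53*, against 0.0159% of genes; the genes called were *Tet2* and ENSMUSG00000048107, named here after their values were seen. At an unadjusted p under 0.05 there were 3 of 9, against 20.2% of all genes. These were *Phlda3* with a slope of 2.25 (95% interval 0.88 to 3.63; adjusted p = 0.0935, limma), *Bbc3* with 1.44 (adjusted p = 0.200) and *Bax* with 0.64 (adjusted p = 0.243). DESeq2 called 1 member, *Phlda3*, with a slope of 4.46 in that fit and an adjusted p of 0.00247. The edgeR quasi-likelihood and likelihood ratio tests called 0, against 0.0478% and 1.34% of genes. Over all genes DESeq2 called 2.03% for this slope, among them the T cell genes *Lck* and *Cd3e*, which the likelihood ratio test called too, and *Pidd1* and *Ccnb2*, all named after their values were seen. Over all settings the adjusted p of *Phlda3* ranged from 0.00247 to 0.184. With single lines left out, the count at an unadjusted p under 0.05 was between 1 and 4 of 9. It was 1 without DKO79.9 (against 15.6% of genes), DKO548 (16.6%) or the library labelled SKO132 (22.9%), and 4 without SKO95 (20.6%), DKO170.2 (23.2%) or DKO713 (19%). In the fit without the library labelled SKO132 that member was *Phlda3*, with a slope of 2.497 (adjusted p = 0.139), while *Bbc3* (unadjusted p = 0.183) and *Bax* (0.103) no longer passed. The slope of *Zmat3* then went from 1.16 to -0.07, that of *Trp53inp1* from 0.56 to -0.25 and that of *Sesn2* from -0.38 to 0.34, and 3 of the 9 slopes were below 0.

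For the slope on *Mdm2* other members had the smallest p values. None of 9 members was called, against 0% of genes, and the edgeR quasi-likelihood and likelihood ratio tests and DESeq2 called 0 as well, against 0%, 0.0638% and 0.0239% of genes. At an unadjusted p under 0.05 there were 4 of 9, against 7.09% of all genes, and with the edgeR quasi-likelihood test 2 of 9, against 7.91%. The 4 in limma were *Ccng1* at 1.80 (adjusted p = 0.643, limma), *Aen* at 1.07 (adjusted p = 0.663), *Zmat3* at 2.57 (adjusted p = 0.682) and *Trp53inp1* at 1.80 (adjusted p = 0.702). Without DKO102.4, which has the most of all 4, the count was 1 of 9, *Ccng1* at 1.54 (adjusted p = 0.518), against 9.14% of genes, and without the library labelled SKO132 it was 3 of 9, against 7.11%. *Bax* and *Bbc3* had slopes on *Mdm2* of 0.08 and 0.49, with adjusted p values of 0.984 and 0.949.

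Across the 15 lines, each target was also set against the mean of the other 8, as a description in which all points share the 2 genotypes. *Ccng1* (r = 0.843) and *Zmat3* (0.828) moved most with the others, followed by *Aen* (0.7499), *Trp53inp1* (0.716) and *Phlda3* (0.650). *Bbc3* (0.548), *Bax* (0.477), *Mdm2* (0.297) and *Sesn2* (-0.155) had the lower values. Without the library labelled SKO132 the r of *Ccng1* was 0.778, those of *Bbc3*, *Bax* and *Mdm2* were 0.407, 0.363 and 0.363, that of *Sesn2* was 0.218, and that of *Trp53* with the 9 targets went from 0.586 to 0.341.

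The genes outside the list that were most like the mean of the 9 targets, among 9698 genes that averaged 5 CPM or more, were *Zdhhc8* (r = 0.835 over 15 lines), *Tnnt1* (0.830), *Srsf4* (0.802), *Qpctl* (0.799) and *Inka2* (0.797). *Ap1m1*, *Prim2*, *Ifi207*, *Cd2bp2* and *Angptl2* followed, down to 0.764. When the library labelled SKO132 was left out, *Zdhhc8* had rank 8 and *Tnnt1* rank 10, and the other 8 had ranks from 13 to 65. None of these 10 is among the other p53 targets listed. The highest of the listed targets, named after their values were seen, were *Pidd1* (0.741, rank 18), whose product forms a caspase-activating complex, and *Tigar* (0.710, rank 43), a regulator of glycolysis; *Cdkn1a* had rank 777. Without that library the ranks of *Pidd1*, *Tigar* and *Cdkn1a* were 52, 76 and 620.

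Of 40 further p53 targets listed, 36 are in the table; *Gdf15*, *Pmaip1*, *Ak1* and *Trp73* have no row that was used. Between genotypes 18 were higher and 18 lower in DKO, with a median of -0.0034 on the log2 scale, and limma called 0; 5 of the 36 had an unadjusted p under 0.05, against 10.2% of all genes, and with so few genes nothing is read from that share. The edgeR quasi-likelihood test called 0, and its likelihood ratio test and DESeq2 each called 1, *Cdkn1a*. The genes under 0.05 besides *Cdkn1a* were *Gadd45a*, a growth arrest gene, at 8.24 ± 3.45 CPM (SD, n = 8) against 17.4 ± 13.2 CPM (SD, n = 7), and *Fdxr*, ferredoxin reductase, at 37.1 ± 10.6 against 26.8 ± 5.81 CPM. *Ephx1*, an epoxide hydrolase, was at 5.37 ± 3.96 against 2.27 ± 1.36 CPM, and *Pmm1*, a phosphomannomutase, at 86.3 ± 26.3 against 57.4 ± 15.5 CPM. Their adjusted p values from limma lay between 0.324 and 0.475. Among the further targets linked to cell death, the death receptors *Fas* and *Eda2r* had the smallest p values. They differed by -0.91 and 0.69 (adjusted p = 0.566 and 0.611, limma). Among those that feed back on p53, *Rps27l* came after *Pmm1* and differed by 0.27 (adjusted p = 0.592, limma).

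Among 20 of 21 listed regulators of p53 in the table, limma, both edgeR tests and DESeq2 called 0 between genotypes, 3 of 20 had an unadjusted p under 0.05 in limma, and 15 of 20 were lower in DKO, against 10.2% and 53.7% of all genes. The smallest p values were those of *Trp53bp2*, which binds p53, with a difference of -0.41 (adjusted p = 0.276), and *Npm1*, nucleophosmin, with 0.27 (adjusted p = 0.460). Single lines stood apart for several regulators, of which 5 are named here after their values were seen. *Cdkn2a*, the locus of the Mdm2 inhibitor Arf and of the kinase inhibitor Ink4a, was at 125 CPM (2273 reads) in the library labelled SKO132 and at 0 to 7.77 CPM in the other 14 lines. The gene value does not separate Arf from Ink4a. For the slope on *Cdkn1a*, DESeq2 called 1 of the 20 regulators, *Cdkn2a*, with a slope of 4.295, against 0.231% of genes. The other tests called 0 for that slope, and DESeq2 was not run without the library labelled SKO132. *Crebbp*, an acetyltransferase and coactivator of p53, was at 0.221 CPM (4 reads) in the same library and at 16.1 to 98.7 CPM in the other 14 lines. That library is the one with the lowest target mean and the lowest *Trp53*, and the part of *Cdkn2a* and *Crebbp* in the target levels was not tested. *Mdm4*, a partner of Mdm2 that inhibits p53, was at 10.8 CPM in DKO170.2 and at 54.9 to 140 CPM in the others. That line was also the lowest for *Atm*, a kinase that activates p53, at 17.1 CPM against 61.9 to 178 CPM, and for *Ep300*, a coactivator, at 55.8 CPM against 122 to 225 CPM. As given above, its targets were uneven, with *Mdm2* the lowest of all lines, and it is the line most often lowest over all genes. *Mdm4* has 14798 bases of exon, more than any member, and the part of gene length in these levels was not tested.

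p21 and the DREAM complex repress cell cycle genes downstream of p53. Of 23 such genes listed, all in the table, 21 were lower in DKO, against 53.7% of all genes, with a median difference of -0.08 against -0.02 over all genes, and limma, both edgeR tests and DESeq2 called 0, with 2 of 23 at an unadjusted p under 0.05 in limma, against 10.2% of all genes. *Bub1*, a mitotic checkpoint kinase, averaged 129 ± 17.5 CPM in the 8 DKO lines against 163.6 ± 13.6 CPM in the 7 others (SD), so the difference was -0.35 (adjusted p = 0.155, limma). *Cdc25c*, a phosphatase for mitotic entry, differed by -0.29 (adjusted p = 0.374). The summed level of the 23 genes in DKO102.4, the line with the most *Cdkn1a*, was 5683 CPM, inside the range of 4685 to 6979 CPM over the lines.

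Markers of the labelled cell type were lowest in sum in the 2 lines with the lowest target means, but single markers differed. All 12 listed T lineage markers are in the table, led by *Tcf7*, and limma, both edgeR tests and DESeq2 called 0 of them between genotypes. As for the members, most were higher in DKO, 10 of 12 against 5810 of 12545 genes, with a median difference of 0.43. Of the 2 of 12 with an unadjusted p under 0.05 in limma, against 10.2% of all genes, *Tcf7* differed by 0.66 (adjusted p = 0.241) and *Cd3e* by 0.46 (adjusted p = 0.463). Their summed level was lowest in the library labelled SKO132 (3945 CPM) and in SKO95 (4161 CPM), the same lines that had the lowest target means, and highest in DKO102.4 (8772 CPM). In the other 12 lines it lay between 5777 and 8055 CPM. Single genes weigh on this sum. *Il2ra* alone was at 1636 CPM in DKO102.4, its highest level. SKO95 had the lowest *Tcf7* of the 15 lines, 800 CPM, but the highest *Cd3g* of its group, 699 CPM. The library labelled SKO132 had *Thy1* at 849 CPM and *Bcl11b* at 350 CPM, within the range of the others, but *Cd3d* at 47.0 CPM, *Il2ra* at 0.827 CPM and *Ptcra* at 0.165 CPM, the lowest of the 15. It was also the lowest for *Cd3e* (184 CPM), *Cd3g* (142 CPM) and *Lck* (320 CPM). That made it the lowest line for 6 of the 12 markers, against 8.79% of all genes. Over the 15 lines the sum and the target mean had r = 0.685, and 0.304 over the 13 lines without SKO95 and the library labelled SKO132. DKO241 was second highest for the sum and had a target mean of -0.42. The r of single markers with the target mean ran from -0.13 for *Thy1* to 0.68 for *Cd8b1*. Without the library labelled SKO132 it was -0.30 for *Cd3g* and -0.40 for *Ptcra*, and still 0.60 for *Cd8b1*. The part of these markers in the levels of the p53 targets was not tested, and in bulk RNA fewer cells of a type and less RNA per cell cannot be told apart.

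Few listed markers of other cell types are among the genes used. None of 6 B lineage and none of 4 erythroid markers listed has a row that was used, and 2 of 7 myeloid markers summed to 5.48 to 13.98 CPM per line, led by *Itgam*. For epithelium 2 of 5 markers summed to 0 to 8.24 CPM, led by *Epcam*. Endothelium was represented by *Pecam1* alone, 1 of 4 markers, at 44.9 to 157.4 CPM. Stroma was represented by 3 of 7 markers, led by *Col1a2*, and the sum ran from 56.3 to 1113 CPM; *Col1a1*, *Col3a1*, *Dcn* and *Lum* are not among the genes used. Of 4 natural killer markers 2 were listed, led by *Gzma*, and summed to 108 to 1280 CPM. The stroma sum was 381 CPM in DKO102.4 and 188 CPM in the library labelled SKO132, neither at an end of its range, and its part in the target levels was not tested.

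Promoter sequences were read for letters that p53 is known to bind. RefSeq windows of 300 bases (250 before to 50 after a gene's start, build GRCm38.p6) were found for 8 of the 10 members. *Zmat3* and *Trp53inp1* had no entry. For *Phlda3* and *Bbc3* the bases just after the start were not found in any annotated transcript of the gene, unlike for the other members with a window. Finding them within a transcript does not show that a transcript starts there. The table of expression values uses positions of another assembly, so its coordinates were not mixed with these. The motif searched on both strands was the p53 response element, 20 bases made of 2 adjacent copies of the p53 consensus of 10 bases, each with the core CNNG, with at most 3 letters off the consensus and both cores intact. It was found in 4 of the 8 members and in *Cdkn1a*, against 1.63% of 27025 genes with a window. Not every window of *Bbc3* and *Cdkn1a* held it. The matches are shown because the best of them belong to *Ccng1*, the member closest to the mean of the others, and to *Cdkn1a*, which differed by genotype; they are written on the strand of the gene, and capitals mark the cores.
Cdkn1a: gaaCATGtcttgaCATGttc
Ccng1: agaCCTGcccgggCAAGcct
Aen: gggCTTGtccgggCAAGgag
Trp53: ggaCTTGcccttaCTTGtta
Bbc3: ctgCAAGccccgaCTTGtcc

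The matches lie at chr17:29090928-29090947 for *Cdkn1a* and chr11:40755462-40755481 on the minus strand for *Ccng1*, each with 1 letter off the consensus. Those of *Aen* (chr7:78895937-78895956), *Trp53* (chr11:69580284-69580303) and *Bbc3* (chr7:16309486-16309505), on the plus strand, have 3 letters off. *Bax*, *Mdm2*, *Phlda3* and *Sesn2* had no such match, which says only that these letters are not in these windows. A single copy of the 10-base consensus with no letter off was found in 5 of the 8 members (*Bax*, *Aen*, *Mdm2*, *Ccng1* and *Trp53*), against 9.55% of genes. A match is a run of letters and not a measured binding site.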

How the data were processed

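RNA of 15 lines was sequenced. According to the methods of the study and its processing notes, the authors trimmed reads with Trimmomatic (version 0.33), aligned them with TopHat2 (version 2.1.0) to mm10, counted them with HTSeq (version 0.6.1) and scaled them with edgeR. The deposited values are CPM per gene, without a filter added here; all 15 value columns were used. Whole reads were recovered from the CPM steps for 100% of values (tolerance 0.02 reads) and used only in alternative tests. Intervals and limits from counts cover counting error only.

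The main test was limma (version 3.58.1, R version 4.3.3) with a variance trend on log2(CPM + 1), a pseudocount of 1, two-sided, with Benjamini-Hochberg adjustment over all genes and a threshold of 0.01, the threshold of the study. Slopes used *Cdkn1a*, *Trp53* or *Mdm2* as covariate with genotype as a term. Exact permutation tests, scores and motifs used Python (version 3.11.15), numpy (version 2.4.6) and scipy (version 1.17.1). Alternatives were other pseudocounts, a filter, scalings, weights, thresholds, single lines left out, SKO156.6 and SKO186.5 averaged, edgeR (version 4.0.16) and DESeq2 (version 1.42.0). Averaging SKO156.6 and SKO186.5 counts them as 1 line, although nothing in the labels ties them to the same mouse.

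The members and lists were chosen with earlier results of these data known. Named genes are the members, *Cdkn1a*, *Lef1*, per list up to 4 genes past the threshold between genotypes or on *Cdkn1a*, or else the 2 with the smallest p between genotypes, and the 10 genes most like the target mean. Exon lengths came from GENCODE M21.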

Additional observations from a re-analysis of the deposited data

Results flagged for a closer look

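Of 36 checks of a single line against the rest of its group, 3 stood out by the gap to the nearest line relative to the range of the group, where chance gives about 1.8, and all concern the library labelled SKO132 among the *E2a-/-* lines. Its *Trp53* was at 160.338 CPM, with the other 6 lines between 269 and 326 CPM. Its *Sesn2* was at 67.1247 CPM, with the others between 22.9 and 41.7 CPM. Its *Cdkn2a* was at 125.369 CPM, with the others between 0 and 6.50 CPM. *Cdkn2a* was named after its values were seen, so for this gene nothing is read from the chance count. The cause of these 3 gaps was not tested.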

How the results depend on the processing

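No member was called between genotypes under any of 27 alternatives, nor for a slope on *Cdkn1a* or *Mdm2* under any of 28; for *Trp53* as covariate DESeq2 called 1 and the 27 others 0. The number of genes called between genotypes, 6 with limma, was 19 at an adjusted p under 0.05, 29 with array weights, 1 with edgeR's quasi-likelihood test, 83 with its likelihood ratio test and 172 with DESeq2, and 3 to 17 with single lines left out (17 without the library labelled SKO132, 10 without DKO79.9, and 3 without DKO170.2, DKO713, SKO137.1 or SKO156.6); the cause was not tested. The genotype difference kept its sign in every alternative for 7 of the 10 members. Among these 7, that of *Phlda3* ran from 0.70 to 1.73 and that of *Bax* from 0.11 to 0.37. That of *Sesn2* was -0.00051 with a pseudocount of 0.1 and -0.083 with SKO156.6 and SKO186.5 averaged, and -0.14 to 0.16 with lines left out; that of *Bbc3* was then -0.10 to 0.39 and that of *Aen* -0.0065 to 0.17. Slopes on *Cdkn1a* kept their sign for 5 of 10 members; with lines left out they ran from -0.069 to 0.15 for *Aen*, -0.076 to 0.30 for *Ccng1*, -0.038 to 0.030 for *Mdm2*, -0.013 to 0.13 for *Trp53* and -0.14 to 0.23 for *Zmat3*, and without a genotype term the slope of *Mdm2* was -0.039. The cause of these changes of sign was not tested. Over all alternatives the lowest adjusted p of a member was 0.428 between genotypes and 0.376 for a slope on *Cdkn1a*. No paired analysis was possible because the names of the lines give DKO and *E2a-/-* libraries no number in common. The other scalings moved the median difference of all genes by 0.02 and 0.03. Depth limits *Phlda3* and *Bbc3* most, with 0 and 25 reads in their lowest lines.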
